A study of Saccharomyces cerevisiae with 1 sample.

Results

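SNR40, SNR47, SNR51 and SNR52 are the box C/D small nucleolar RNAs (snoRNAs) of Saccharomyces cerevisiae that each guide ribose methylation in both the 18S and the 25S rRNA. They were chosen by name and function, and are 4 of the 67 RNAs for which hits were given in the snoRNA class. All values came from 1 library of the untagged strain BY4742, the control of a CRAC experiment on the RNA helicase Dbp6. In CRAC, proteins are cross-linked to RNA in living cells, a tagged protein is purified in successive steps, and the RNA fragments that remain attached are reverse transcribed and sequenced. BY4742 carries no tagged protein, so its hits give the background of that purification and not the binding of a chosen protein. The cells were grown in minimal medium lacking tryptophan with glucose to a final OD of 0.6, and the library was amplified by 16 cycles of PCR. The tagged library was not analysed here, and with 1 library the values below have neither a spread nor a test.

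A box C/D snoRNA carries short conserved boxes named C and D, often with a second, less conserved pair, and is bound by a core set of proteins that includes the methyltransferase Nop1. A stretch of the snoRNA just upstream of a D or D′ box base-pairs with the pre-rRNA, and the rRNA nucleotide paired to the fifth position upstream of that box receives a methyl group on its ribose. A guide with a stretch before each box can therefore address a pair of sites, and in the 4 RNAs described here these sites lie in different ribosomal subunits. Only the 25S targets could be examined, because the 18S rRNA was not analysed here.

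The 25S targets are the nucleotides U898 for SNR40, A2220 for SNR47, U2729 for SNR51 and U2921 for SNR52. The base in the deposited pileup, which lists hits at every nucleotide of the 25S gene copy RDN25-1, was the listed one at each of them. The following stretches of 41 nucleotides, read from that pileup (T stands for U), are shown because the hits and sequence changes described further on lie on and around them. The methylated nucleotide is in capitals.
SNR40 target, 25S nucleotides 878 to 918: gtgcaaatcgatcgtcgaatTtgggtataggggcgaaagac
SNR47 target, 25S nucleotides 2200 to 2240: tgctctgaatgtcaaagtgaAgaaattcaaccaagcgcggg
SNR51 target, 25S nucleotides 2709 to 2749: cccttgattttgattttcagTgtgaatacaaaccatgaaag
SNR52 target, 25S nucleotides 2901 to 2941: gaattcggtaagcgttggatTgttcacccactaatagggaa
RefSeq's R64 assembly places RDN25-1 at chrXII:451786-455181 on the minus strand, and the stretches correspond to chrXII:454264-454304, chrXII:452942-452982, chrXII:452433-452473 and chrXII:452241-452281 in the order given. The assembly lists 2 copies of the 25S gene, whose reads are not told apart in these values. U898 lies in domain II of the 25S rRNA, A2220 in domain IV, and U2729 and U2921 in domain V. U2921 belongs to the A loop, the hairpin that contacts the end of the transfer RNA in the A site of the ribosome.

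In the untagged control the 4 guides were among the most often recovered RNAs of their class. SNR52 received 1590 hits per 1000000 reads (RPM), SNR47 received 1090, SNR40 received 1020 and SNR51 received 596. SNR52 ranked 5 of 67, SNR47 ranked 7, SNR40 ranked 8 and SNR51 ranked 13. Together they held 4296 RPM, or 14.003% of the 30680 RPM of the snoRNA class, while making up 5.97% of its RNAs. Their median was 1055 RPM against 181 for the other 63 RNAs, a ratio of 5.83. All 4 reached at least 2-fold the median of all 67 RNAs (219 RPM), a level reached by 26.9% of the RNAs in the table. Of all hits in the library, 0.430% fell on these 4 RNAs.

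**Figure D1:**
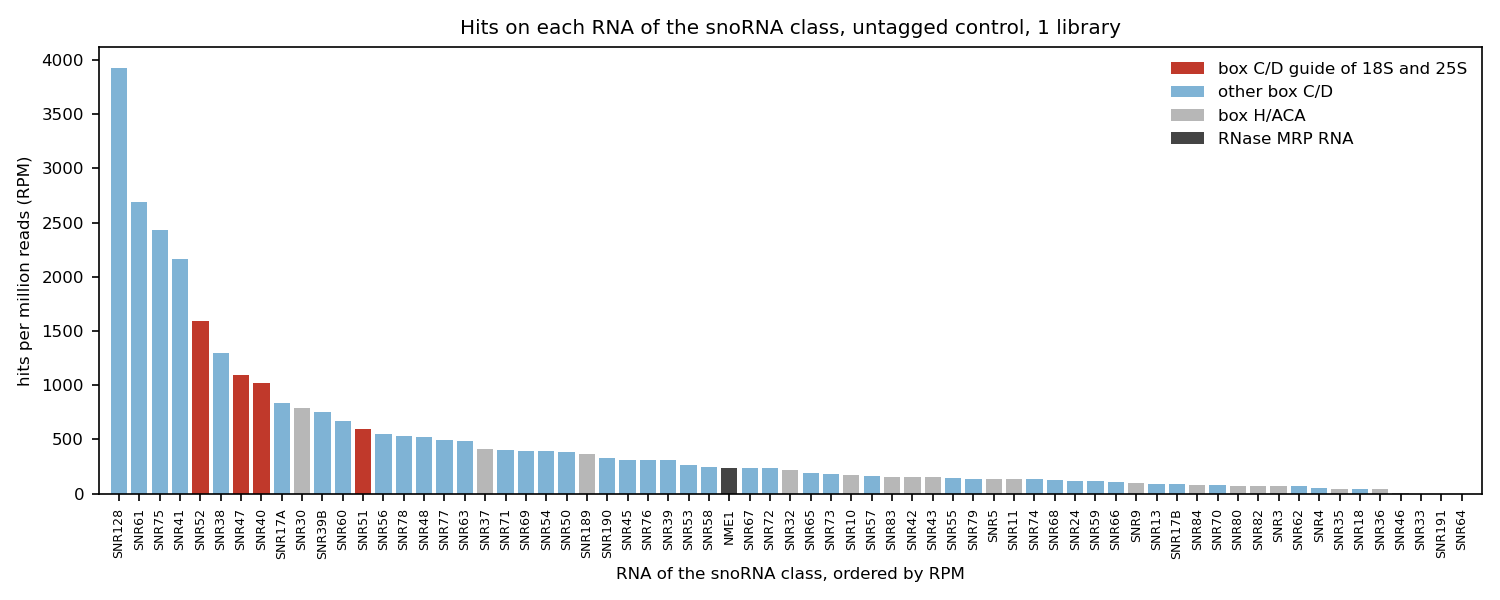
Bars give the hits per 1000000 reads (RPM, from 0) on each of the 67 RNAs of the snoRNA class in 1 library of the untagged control, ordered from highest to lowest. The 4 box C/D guides of both subunits, in red, stand between 596 and 1590 RPM, at ranks 5, 7, 8 and 13.

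Longer RNAs can collect more fragments, so levels were also compared per nucleotide of annotated length. SNR40 is 97 nucleotides long, SNR47 is 99, SNR51 is 107 and SNR52 is 92. Per nucleotide, SNR52 had 17.3 RPM, SNR47 had 11.0, SNR40 had 10.5 and SNR51 had 5.57, which was between 3.49-fold and 10.8-fold the median of all 67 RNAs (1.60 RPM per nucleotide). The order among the 4 did not change. SNR51 moved from rank 13 to rank 14, and the other ranks were the same as by RPM.

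The guides differed among themselves more than their lengths do. The highest, SNR52, had 2.67 times the RPM of the lowest, SNR51, and 3.10 times its RPM per nucleotide. SNR52 alone held 37.0% of the hits on the 4 guides. SNR47 and SNR40 were close together, with a difference of 70 RPM, or 0.495 RPM per nucleotide. Whether neighbours this close in the order would change places in another library was not tested.

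Among the neighbours in the order by RPM, SNR52 stood between SNR41 (2160 RPM), a guide of 18S methylation, and SNR38 (1300 RPM), a guide of 25S methylation. SNR38 was also the RNA directly above SNR47. SNR40 was followed by SNR17A, 1 of the genes of the U3 snoRNA that acts in processing of the 18S precursor, with 839 RPM. SNR51 lay between SNR60 (674 RPM), a guide of 25S sites, and SNR56 (554 RPM), a guide of an 18S site. All of these neighbours belong to the box C/D family.

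Compared with other lists of guides, the 4 RNAs lay above the middle of every list and below the top of the methylation guides. The 26 box C/D guides of 25S sites alone had a median of 277 RPM and a range from 0 to 2690. SNR64 is listed at 0 and SNR61 is the highest of them. Of these 26, 5 exceeded the lowest of the 4 (SNR51) in RPM and 2 exceeded the highest (SNR52). The 10 box C/D guides listed for 18S sites alone that are in the table had a median of 213 RPM. Of these 10, only SNR41 exceeded SNR51 in RPM. RNAs listed under processing were kept out of the lists, whether or not they also guide methylation. Among them is the box C/D snoRNA SNR128, which ranked 1 of 67 (3923 RPM, 31.1 RPM per nucleotide). Another is the box H/ACA snoRNA SNR30, which ranked 10 with 792 RPM, above SNR51, and had 1.31 RPM per nucleotide. The 19 box H/ACA guides in the table, which direct pseudouridylation, had a median of 96 RPM and a maximum of 409, below each of the 4. Per nucleotide, 6 of the 25S methylation guides, 3 of the 18S methylation guides and none of the H/ACA guides exceeded SNR51. The median of the 4 (10.8 RPM per nucleotide) was 3.98-fold that of the 25S methylation guides, 4.54-fold that of the 18S methylation guides and 24.9-fold that of the H/ACA guides. Within the box C/D family, which holds 46 of the 67 RNAs, the 4 made up 8.70% of the RNAs and received 15.7% of the hits.

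**Figure D2:**
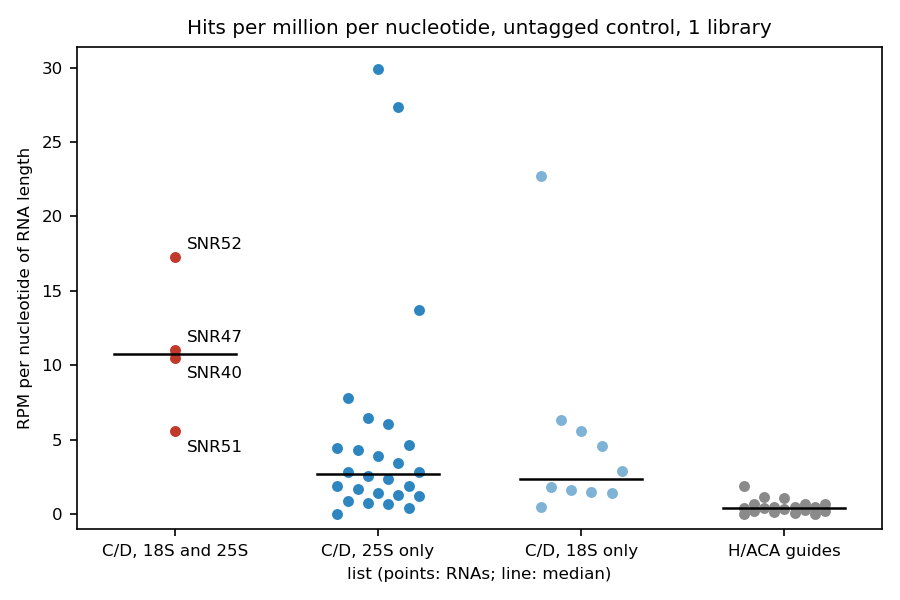
Points give the RPM per nucleotide of RNA length in 1 library of the untagged control for the 4 guides of both subunits and for the 3 lists of other guides, and lines give the medians. The 4 guides lie between 5.57 and 17.3 RPM per nucleotide, while the highest H/ACA guide has 1.92. In the lists, 2 guides of 25S sites alone and 1 of 18S sites alone exceed SNR52. RNAs listed under processing, such as SNR128, are not shown.

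The 4 RNAs come from separate places in the genome and differ in how they are made. SNR40 lies at chrXIV:89210-89306, 473 bases from PCL1 and 996 from CAF40, and all 3 genes are on the plus strand. SNR47 lies at chrIV:541602-541700 on the minus strand, 398 bases from YDR042C and 973 from NRG1. None of the 4 overlaps another gene of the annotation.

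SNR52 lies at chrV:431129-431220 on the minus strand, 679 bases from PMD1 and 1274 from GLC7. It is known as a snoRNA of yeast that is transcribed by RNA polymerase III, the polymerase of the tRNA genes, whereas the other snoRNA genes use RNA polymerase II. It had the most hits of the 4, and whether its polymerase bears on this level was not tested. The whole tRNA class of the same library received 9968 RPM, and the level of SNR52 was 16.0% of that sum.

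SNR51 is the last gene of a cluster at which SNR41, SNR70 and SNR51 are made from a common precursor RNA. The cluster lies on the minus strand of chromosome XVI, with SNR51 at chrXVI:718700-718806, SNR70 at chrXVI:718887-719050 and SNR41 at chrXVI:719148-719242. The genes are 80 and 97 bases apart. The 3 RNAs were recovered to very unequal extents. SNR41 had 2160 RPM (rank 4), SNR51 had 596 (rank 13) and SNR70, a guide of 18S methylation, had 77 (rank 55). Per nucleotide SNR41 had 4.08 times the level of SNR51, and SNR51 had 11.9 times that of SNR70. The order of the levels was therefore not the order of the genes in the precursor, where SNR70 is in the middle.

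On the 25S rRNA, hits at the targets fell in the order of their positions. The target of SNR40 had 706 hits per 100000 reads, that of SNR47 had 407, that of SNR51 had 187 and that of SNR52 had 133. Over all 3396 nucleotides of this rRNA the median was 170 hits, so the targets of SNR40, SNR47 and SNR51 lay above it and that of SNR52 below it. In percentiles of all 25S nucleotides, the targets stood at 79.5, 71.9, 52.4 and 41.7. The guide with the most hits in the snoRNA table, SNR52, thus had the target with the fewest hits of the 4. With 4 guides of unlike surroundings on the rRNA, no relation between guide and target was computed.

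Averaged over 21 nucleotides centred on each target, hits were 702 for SNR40, 1156 for SNR47, 197 for SNR51 and 133 for SNR52. Divided by the 25S median, they came to 4.13-fold, 6.80-fold, 1.16-fold and 0.783-fold. The windows of SNR40 and SNR47 were at least 2-fold above the median, as were 32.9% of all windows of this length. Against the mean of the 25S rRNA (1547 hits), which is raised by a few very high peaks, all 4 windows were below 1-fold, between 0.0861-fold and 0.748-fold.

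The shape of the hits differed from target to target. U898, the target of SNR40, lay on a plateau. Hits were 324 at 17 nucleotides upstream, rose to 516 at the next nucleotide, and then stayed between 619 and 748 within 10 nucleotides of the target. Nucleotides 866 to 962, a run of 97 nucleotides around the target, were all at or above the 25S median.

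A2220, the target of SNR47, lay at the foot of a tall peak. Hits were 13435 at nucleotide 2178, which is 42 nucleotides upstream, 11560 at 25 nucleotides upstream, 4613 at 10 nucleotides upstream, 407 at the target and 253 at 10 nucleotides downstream. The 10 nucleotides before the target averaged 2049 hits and the 10 after it 339, a ratio of 6.05. The value of this window therefore came mostly from its upstream side. Taken alone, A2220 had 2.39-fold the 25S median.

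U2729, the target of SNR51, lay close to the 25S median, at 1.10-fold. Within 10 nucleotides hits were between 149 and 232, and the 10 nucleotides upstream had 1.19 times the mean of the 10 downstream.

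U2921, the target of SNR52, lay in a trough between 2 regions of more hits. Hits fell from 525 at 22 nucleotides upstream to 136 at the next nucleotide, and rose from 164 at 11 nucleotides downstream to 370 at the next and 810 at 15 nucleotides downstream. The 33 nucleotides from 2900 to 2932 were all below the 25S median, with the lowest value, 96 hits, 4 nucleotides downstream of the target.

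**Figure D3:**
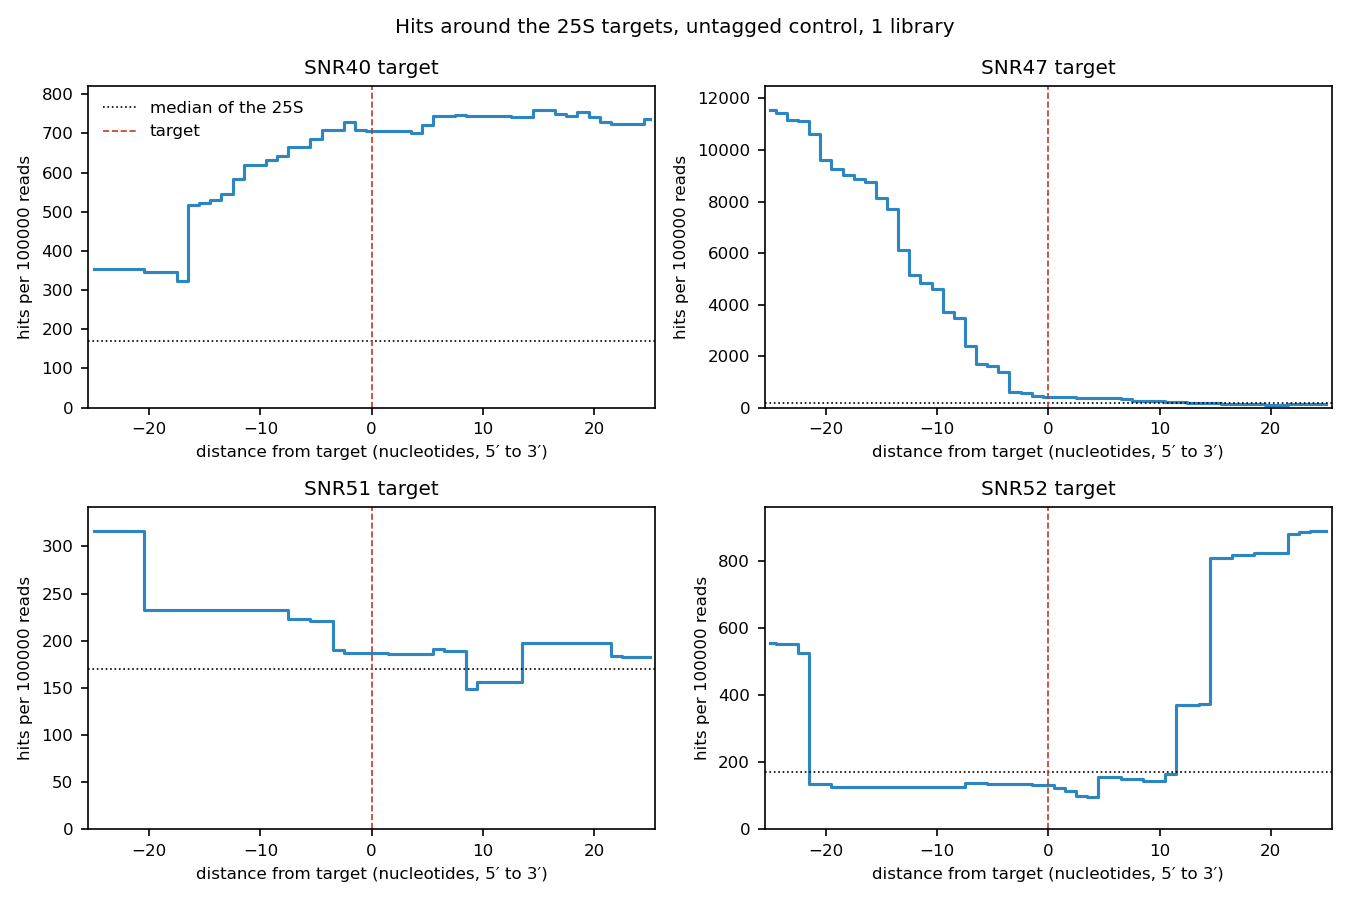
Steps give hits per 100000 reads in 1 library of the untagged control from 25 nucleotides upstream to 25 downstream of each 25S target, with a separate vertical axis from 0 in each panel. The dotted line is the median of the 25S rRNA (170 hits) and the dashed line the target, which lies on a plateau for SNR40, at the foot of a peak for SNR47, near the median for SNR51 and in a trough for SNR52.

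The targets were then set among the other ribose-methylated nucleotides of the 25S rRNA. A list of 33 further sites from textbook knowledge was used, and the pileup held the listed base at all 33. By hits, the targets of SNR40, SNR47, SNR51 and SNR52 ranked 6, 7, 12 and 15 of the 37 sites. Their median was 297 hits against 108 for the other 33, which ranged from 17 to 11168. Of the other sites, 5 had more hits than the highest of the 4 targets and 11 had more than the lowest. Sites close together share reads, so these values are not independent of each other.

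**Figure D4:**
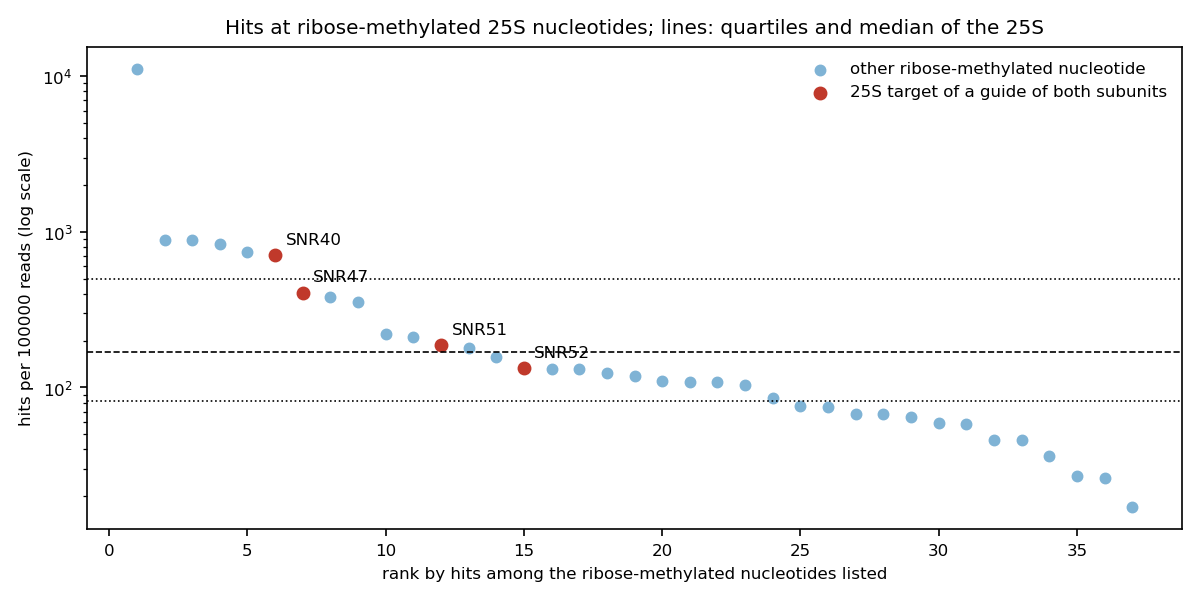
Points give hits per 100000 reads (log scale) at the 37 listed ribose-methylated nucleotides of the 25S rRNA in 1 library of the untagged control, ordered by hits. The targets of the 4 guides, in red, have ranks 6, 7, 12 and 15, and the lines mark the quartiles (82 and 499 hits) and the median (170 hits) of all 25S nucleotides.

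Other guides of ribose methylation address sites within 25 nucleotides of these targets, and each had fewer RPM than the guide of both subunits there. So did most RNAs of the class. Of the other 63 RNAs, 92.1% lay below SNR40, 92.1% below SNR47, 85.7% below SNR51 and 93.7% below SNR52. Guides of pseudouridylation with sites near the targets were not considered here. Near U898, SNR60 (674 RPM) guides a site 10 nucleotides downstream and SNR72 (233 RPM) a site 22 nucleotides upstream, against 1020 RPM for SNR40. A site 23 nucleotides upstream of A2220 is guided by SNR76, which had 309 RPM against 1090 for SNR47. SNR67 (234 RPM) guides a site 5 nucleotides upstream of U2729, and its level was also below the 596 RPM of SNR51. SNR71 (400 RPM) guides a site 25 nucleotides downstream of U2921, against 1590 RPM for SNR52. The nucleotide directly after U2921 is methylated by the protein Spb1 without a guide, and had 124 hits without a change.

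Reverse transcriptase tends to misread or skip a nucleotide that still carries an amino acid from the cross-link. Substitutions and deletions, together called changes here, were therefore a further readout of the pileup. What caused the changes in this untagged library was not tested. At U898, 15 of 706 hits carried a substitution (2.12%), and at U2729, 5 of 187 did (2.67%). No change was seen in the 407 hits at A2220 or in the 133 hits at U2921. None of the 4 targets had a deletion. Of the 4 targets, 2 were therefore changed in at least 1% of hits, as were 19.4% of the 2374 nucleotides that had 100 or more hits. The median of these nucleotides was 0.323%, and 33.7% of them had no change at all. U898 and U2729 stood at percentiles 88.1 and 89.8 of all such nucleotides, and at 83.7 and 85.9 of the 589 that are uridines. Among the other ribose-methylated sites with at least 100 hits, 4 of 19 were changed in at least 1% of hits and 6 of 19 had no change.

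Around the targets, the changes lay mostly at other nucleotides. Only U898 was the most often changed nucleotide of its 21-nucleotide window, in which 70 changes made up 0.475% of the hits. Beyond that window, A883, 15 nucleotides upstream, had 66 substitutions in 522 hits (12.6%). In the window of A2220, 602 changes made up 2.48% of the hits, and 441 of them were substitutions at A2213, 7 nucleotides upstream, which was changed in 18.4% of 2391 hits. The highest share near A2220 was at A2242, 22 nucleotides downstream, with 36 substitutions in 127 hits (28.3%).

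Deletions were seen within 25 nucleotides of all 4 targets. Near U898, nucleotide 884, 14 nucleotides upstream, had 26 deletions in 529 hits, and nucleotide 899, directly downstream, had 1 in 706 hits. Directly downstream of A2220, 14 deletions were counted at each of the nucleotides 2221 and 2222, in 405 and 400 hits. Beside U2729, 17 deletions were counted at each of the nucleotides 2731 and 2732, in 186 hits each, which made up most of the 10.2% and 9.14% changed there. Whether the equal numbers at adjacent nucleotides came from the same reads cannot be read from the pileup. C2726, 3 nucleotides upstream of U2729, had 20 substitutions in 190 hits (10.5%), and U2729 itself ranked 4 among the 21 nucleotides of its window.

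By number, the window of U2921 had the fewest changes, 19 substitutions and no deletion, and 15 of its 21 nucleotides had none. It also had the fewest hits. Per hit, 0.680% were changed, against 0.475% in the window of U898, 1.81% in that of U2729 and 2.48% in that of A2220. G2914, 7 nucleotides upstream of U2921, had 10 of the 19 substitutions in 139 hits (7.19%), and G2918, 3 nucleotides upstream, had 5 in 136 hits (3.68%). The 133 hits at U2921 were the fewest of the 4 targets. Farther out, G2901, 20 nucleotides upstream, had 8 substitutions and 9 deletions in 134 hits (12.7%), the highest share within 25 nucleotides of this target.

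**Figure D5:**
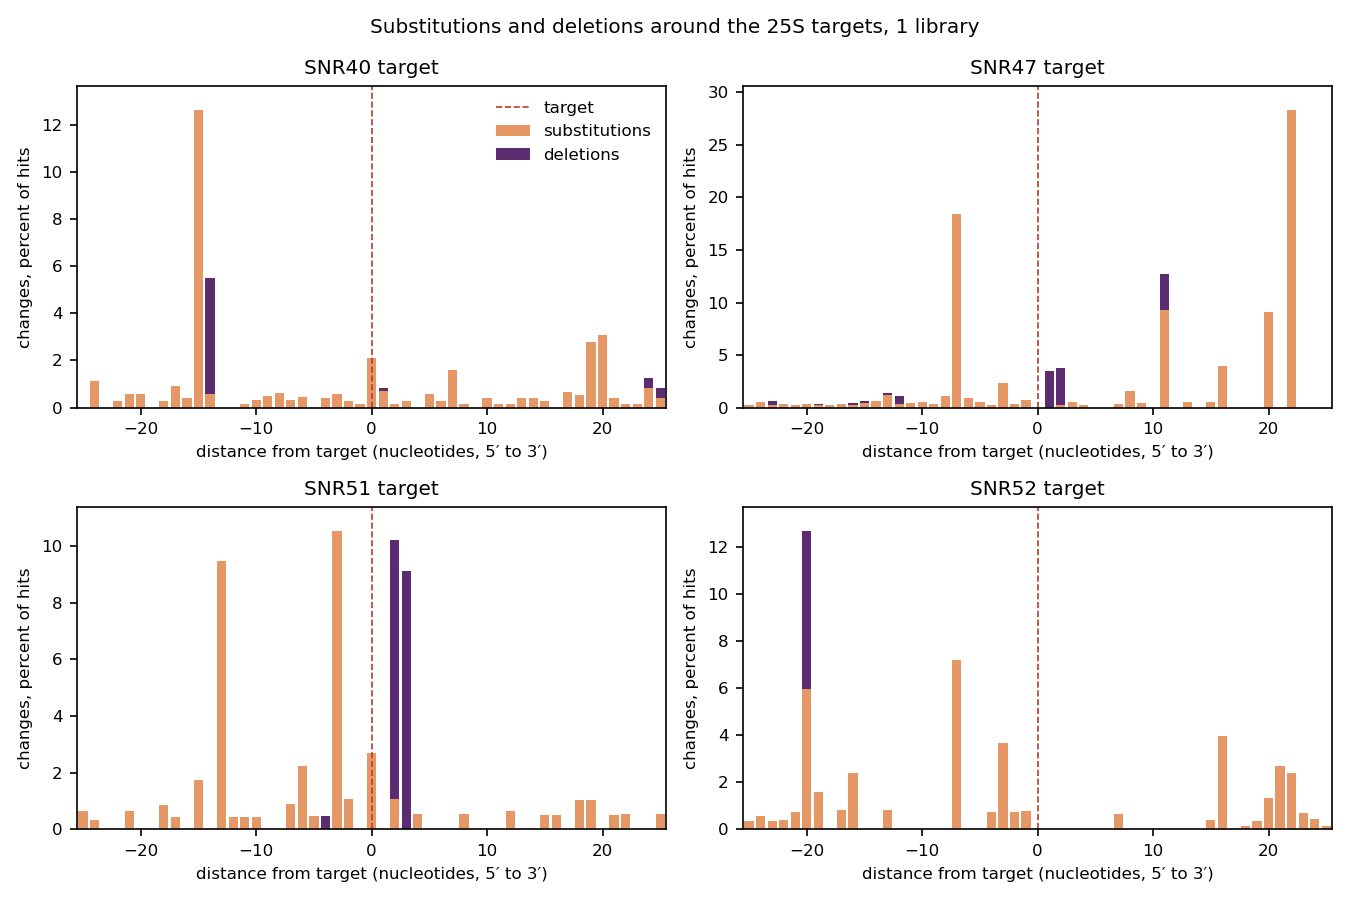
Stacked bars give substitutions and deletions as percent of hits in 1 library of the untagged control from 25 nucleotides upstream to 25 downstream of each 25S target (dashed line), with a separate vertical axis from 0 in each panel. The targets of SNR40 and SNR51 carry substitutions in 2.12% and 2.67% of hits, those of SNR47 and SNR52 carry none, and the tallest bars, up to 28.3%, stand at other nucleotides.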

How the data were processed

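RNA fragments recovered from the untagged strain BY4742 (1 library, 1 sample) were sequenced on an Illumina MiSeq. The study used Flexbar for trimming and filtering, Novoalign as the aligner and pyCRAC for counts and pileups. The submitters' processing notes name the build R64. For 6 RNA classes and for each snoRNA, the authors deposited RPM values (hits per 1000000 reads) as whole numbers. The classes sum to 1000000 and the 67 RNAs to the snoRNA class. The deposited 25S pileup holds hits, substitutions and deletions per 100000 reads as whole numbers, treated as a score. For the pileups the methods name the pyPileup option limit, set to 100000, while the first line of the file speaks of hits per 100000 reads. How many reads were counted is given by neither, so the values were not treated as raw counts and no counting intervals were set.

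Shares, ranks, RPM per nucleotide of annotated length, 21-nucleotide means and changes per hit (at nucleotides with at least 100 hits) were computed with pandas 2.3.3 and numpy 2.4.6 under Python 3.11.15, and plotted with matplotlib 3.10.9. All 67 names matched RefSeq's R64 gene table, which gave lengths and coordinates. The lists of guides and of methylated nucleotides came from general knowledge. Of the listed guides, 1 of 11 for 18S and 9 of 28 of the H/ACA family have no row in the table. The text names the 4 guides, the RNAs next to them by RPM and the cluster mates of SNR51. It also names guides of ribose methylation with sites within 25 nucleotides of a target, the ends of the lists, SNR128 and SNR30. The members and lists were chosen with earlier results of these data known. With 1 library no test was made. Alternatives covered the total, the rows compared, the window, the background and the kind of change.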

Additional observations from a re-analysis of the deposited data

How the results depend on the processing

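Without replicates or a known depth, a value was taken as unchanged under 2 conditions. It had to stay within 1.5 times of that reported and on the same side of 1-fold. Of 60 alternatives, 43 did so, among them all ranks and all percentiles of changes. Some of these could not have come out otherwise. With 0 changes at the targets of SNR47 and SNR52, their substitutions alone, deletions alone and percentiles had to be 0. Without deletions at the targets of SNR40 and SNR51, substitutions alone had to equal all changes. The share of hits on the 4 guides, 14.003% of the snoRNA class, was 1.45% of all classes other than rRNA. That value rests on the deposited rRNA class of 703741 RPM, a lower share of reads than the study states for its control. The ratio of medians, 5.83 against all other rows, was 3.81 against guides of 25S methylation alone and 11.0 against H/ACA guides, and 2.56 with means. With the 25S mean as background, hits around the targets of SNR40, SNR47, SNR51 and SNR52 were 0.454-fold, 0.748-fold, 0.127-fold and 0.0861-fold, where the median gave 4.13, 6.80, 1.16 and 0.783. The value of SNR47 was 2.39 at the nucleotide alone, 3.70 with 5 nucleotides each side and 18.5 with 25, since wider windows reach further into the upstream peak. That of SNR52 was 1.95 with 25 nucleotides each side, beyond the edges of the trough. Counting deletions only, changes at the targets of SNR40 and SNR51 were 0%. Pooled over 2 nucleotides each side, changes were 0.703% for SNR40 (2.12% at the nucleotide), 1.54% for SNR47 and 0.313% for SNR52 (both 0% at the nucleotide). No paired analysis was possible because only a single control library was at hand, which also left no replicate to omit.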

Other observations

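Some box H/ACA snoRNAs also direct modification in both rRNA subunits. Of 4 such guides considered after the table had been seen (SNR44, SNR49, SNR80 and SNR189), 2 have a row in it. SNR189 had 363 RPM (rank 24 of 67) and SNR80 had 74 RPM (rank 56). Both were below the lowest of the 4 box C/D guides of both subunits, SNR51 with 596 RPM. The same held for all 19 box H/ACA guides in the table, whose maximum was 409 RPM, so this is not particular to guides of both subunits.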
